A study of Mus musculus with 2 samples.

Results

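The unfolded protein response genes described here were Ern1, Eif2ak3, Atf6, Xbp1, Atf4, Ddit3, Hspa5, Calr, Dnajb9 and Herpud1, 10 of the 32524 genes in the deposited tables. They were chosen by name, as the sensors, transcription factors and targets of the response, and were followed across the cell classes of synovial myeloid cells and across both libraries. All 10 passed the level that was asked of a gene for the comparison of the libraries, an average of 5 CPM, that is UMIs of the gene per 1000000 UMIs of all genes. For Ddit3 the tables hold a pair of Ensembl IDs at overlapping positions on the same strand, of which one had 0 UMIs in every cell, so that the count of Ddit3 is uncertain.

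The study trained mice with β-glucan, a fungal cell wall sugar, before arthritis, and asked how trained synovial myeloid cells differ in an inflamed joint. C57BL/6 wild-type mice of 7 to 10 weeks received 1 mg β-glucan or PBS intraperitoneally, and arthritis was induced 7 days later. CD45+CD11b+ cells were sorted from the digested hind paws on day 17 and measured by 3' single-cell RNA sequencing. Each group was 1 library. A group had 4 mice, how their cells were combined is not given in the sources used here, and no cell could be traced to its mouse. The labels describe arthritis induced by injected antibodies with lipopolysaccharide on day 3, whereas the methods name K/BxN serum transfer. Both libraries carry the same label, and neither group was free of arthritis.

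The unfolded protein response is the answer of a cell to misfolded protein in the endoplasmic reticulum (ER). Its sensors span the ER membrane: IRE1α, encoded by Ern1, splices the Xbp1 mRNA, PERK, encoded by Eif2ak3, slows translation and favours that of ATF4, and ATF6 is cut to release a transcription factor. The factors raise chaperones such as BiP (Hspa5) and calreticulin (Calr) and the degradation machinery (Herpud1), and under lasting stress CHOP (Ddit3). The libraries are 3' counts per gene, so that neither splicing of Xbp1 nor the protein activity of a sensor was measured. Secretory cells such as plasma cells are known for high use of the pathway, and macrophages for a role of IRE1α in inflammatory gene expression.

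The promoters of Hspa5, Calr and Herpud1 are shown because these 3 targets hold a known ER stress motif and were all lower in the trained cells. The window searched ran from 250 bases before to 50 bases after the RefSeq gene start (GRCm38.p6), on both strands. The 200 bases before the start are printed 5′ to 3′ along the strand of the gene, with matched letters in capitals.
Hspa5 (chr2:34771890-34772089, + strand): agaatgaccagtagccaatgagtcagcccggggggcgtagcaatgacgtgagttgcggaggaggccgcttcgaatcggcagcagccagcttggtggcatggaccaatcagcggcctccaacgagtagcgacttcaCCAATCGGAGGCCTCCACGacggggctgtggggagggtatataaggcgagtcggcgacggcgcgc
Calr (chr8:84846932-84847131, - strand): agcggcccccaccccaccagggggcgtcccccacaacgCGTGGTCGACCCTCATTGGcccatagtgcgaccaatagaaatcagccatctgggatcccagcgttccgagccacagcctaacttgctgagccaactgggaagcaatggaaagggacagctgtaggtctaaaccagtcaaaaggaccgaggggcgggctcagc
Herpud1 (chr8:94386229-94386428, + strand): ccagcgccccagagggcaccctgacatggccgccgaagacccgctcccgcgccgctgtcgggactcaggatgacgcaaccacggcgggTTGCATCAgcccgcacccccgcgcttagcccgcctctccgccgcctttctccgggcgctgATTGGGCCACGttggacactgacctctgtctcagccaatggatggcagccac

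The capitals in Hspa5 and Calr are the ER stress response element, CCAAT, 9 bases of any kind, then CCACG. It began 65 bases before the start of Hspa5 on the gene's strand, and lay 162 to 144 bases before the start of Calr on the opposite strand. Of 32851 promoters in the table, 39 (0.119%) held this element. The capitals nearest to the start of Herpud1 are its second form, ATTGG, 1 base of any kind, then CCACG, which 12 promoters (0.0365%) held. The capitals farther from the start are the amino acid response element core TGATGNAA on the opposite strand, held by 1304 promoters (3.97%). No promoter held both the element and its second form. The UPR element core TGACGTGG was in 222 promoters (0.676%) and in none of the 9 members found in the table, which had no entry for Atf6.

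After barcodes with fewer than 500 genes or with more than 10% mitochondrial UMIs were removed, 10249 cells remained, 5696 from β-glucan mice and 4553 from PBS mice, with a median of 12457.5 and 14475 UMIs per cell. The libraries shared 7 barcodes, 2 after the filter. Of 21 rebuilt clusters, made without the members and pathway genes, 11 formed the main myeloid compartment of macrophage-like cells and cells like antigen-presenting cells (APC-like). It held 4566 β-glucan cells with 64715325 UMIs and 3584 PBS cells with 59611714 UMIs. B cell-like, T cell-like, NK cell-like, basophil/mast-like, stromal-like and endothelial-like clusters were also present among the sorted cells. Clusters 18 and 19 could not be named and lay outside the compartment. Cluster 18, for which the macrophage list was the best, held 6 β-glucan and 57 PBS cells, and cluster 19 held 24 and 24. As each group was 1 library, no test between the groups was possible, and the 95% intervals given here cover counting error only.

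In the compartment the sensors Ern1, Eif2ak3 and Atf6 were higher in the β-glucan library. The targets Hspa5, Calr, Herpud1 and Dnajb9 were lower, and the factors Xbp1, Atf4 and Ddit3 lay within 0.1 of 0 on the log2 scale. Dnajb9, at -0.09, lay within 0.1 of 0 too, and the interval of Xbp1 lay just above 0 (0.00 to 0.10). Of the 10 members 4 were higher, where 58.0% of the 9806 tested genes were higher. The median log2 ratio of β-glucan over PBS was -0.03 for the members and 0.03 for all tested genes. A log2 ratio of at least 0.25 was reached by 1 member, Ern1, and by 7.79% of tested genes, and a ratio of at most -0.25 by 0 members and 4.77% of tested genes. Intervals lay above 0 for 4 members and 33.0% of tested genes, and below 0 for 4 members and 21.6% of tested genes. An interval is narrower for a gene with more UMIs, and these shares were not taken at matched UMI number. The percent change ranged from -14.6 for Hspa5 to 21.8 for Ern1.

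Ern1 (chr11:106283818-106378686, minus strand, GRCm39) stood at 99.7 CPM with β-glucan and 81.9 CPM with PBS, from 6454 and 4880 UMIs. This was a log2 ratio of 0.28 (0.23 to 0.34), and 94.4% of tested genes had a lower ratio. Eif2ak3 stood at 42.1 and 35.7 CPM, a log2 ratio of 0.24 (0.16 to 0.32). Atf6 stood at 168 CPM against 154 CPM, with a log2 ratio of 0.13 (0.09 to 0.17). The β-glucan library was therefore the higher for each of these sensors, beyond counting error. Atf6b, a relative of Atf6 from the fixed list of sensors, stood at 34.4 CPM in both, a log2 ratio of 0.00 (-0.09 to 0.09).

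The factors among the members were nearer to 0 than the sensors. Xbp1, the substrate of IRE1α, stood at 115 CPM with β-glucan and 111 CPM with PBS, a log2 ratio of 0.05 (0.00 to 0.10). Atf4, the factor translated when PERK is active, stood at 122 and 123 CPM, a log2 ratio of 0.00 (-0.05 to 0.04). Ddit3, which encodes the pro-apoptotic factor CHOP, stood at 15.8 CPM against 16.4 CPM, with a log2 ratio of -0.05 (-0.18 to 0.08). The interval of Xbp1 began just above 0, and those of Atf4 and Ddit3 held 0.

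The targets were lower in the β-glucan library. Hspa5, encoding the ER chaperone BiP, stood at 275 CPM against 323 CPM in the PBS library, a log2 ratio of -0.23 (-0.26 to -0.20). Calr, the lectin chaperone calreticulin, stood at 333 and 365 CPM, a log2 ratio of -0.13 (-0.16 to -0.10). Herpud1, a membrane protein of ER-associated degradation, stood at 92.5 and 105 CPM, a log2 ratio of -0.18 (-0.24 to -0.13). Dnajb9, a co-chaperone of BiP and a target of spliced Xbp1, stood at 38.9 and 41.5 CPM, a log2 ratio of -0.09 (-0.17 to -0.01). Each of these 4 intervals lay below 0, as did those of 21.6% of tested genes.

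**Figure D1:**
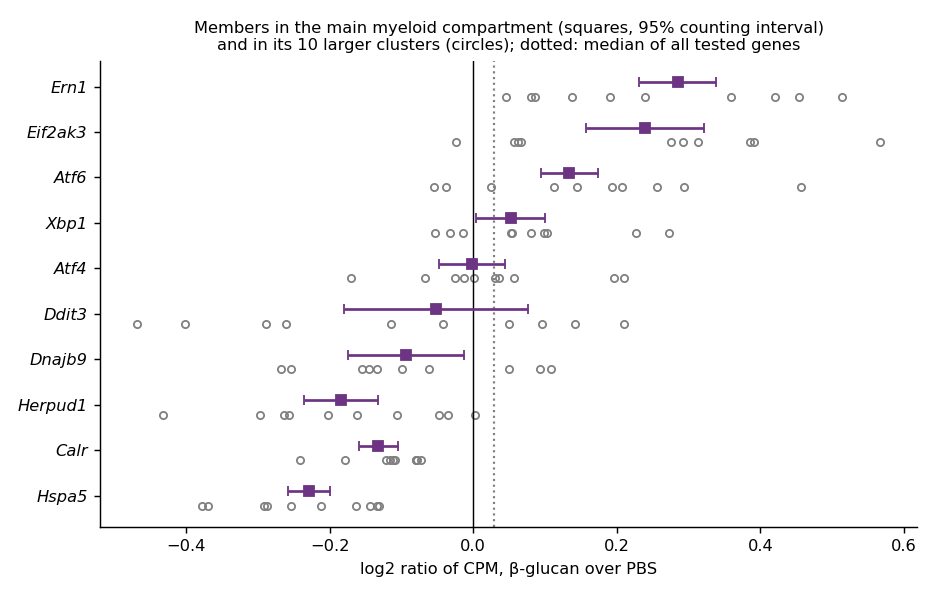
Log2 ratio of CPM, β-glucan over PBS, of each member in the main myeloid compartment (squares, bars are 95% counting intervals) and in its 10 clusters of at least 100 cells per library (circles), with the median of all tested genes as a dotted line at 0.03. Ern1 lies at 0.28 with all circles above 0, and Hspa5 at -0.23 and Calr at -0.13 with all circles below 0.

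One PBS cell carried part of the difference in Hspa5. This cell of the macrophage-like cluster 0 held 549 Hspa5 UMIs among its 22910 UMIs, while the next highest PBS cell held 76 and the highest β-glucan cell 65. Cluster 0 had a score of 0.39 for macrophage markers but a higher one, 0.76, for osteoclast markers, so its name is uncertain. Without this cell the log2 ratio of Hspa5 was -0.19, and the ratios of the other members were the same to 2 decimals, apart from Ern1 at 0.29. Across single cells thinned to 8000 UMIs, with this PBS cell included, the ratio of variance to mean of Hspa5 averaged 6.47 with PBS (5.07 to 7.25 over 20 random draws) and 2.19 with β-glucan (2.10 to 2.29). That ratio was not measured without the cell, so it does not show a wider spread among PBS cells in general. For the other 9 members the averages lay between 1.12 and 1.95 in both libraries.

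The direction of Ern1, Hspa5 and Calr held within the cell states of the compartment. Ern1 was higher with β-glucan in 10 of the 10 clusters with at least 100 cells per library, with an interval above 0 in 6 of them. Its largest log2 ratios were 0.51 (0.32 to 0.71) in cluster 8, led by Olr1 and Spp1, and 0.45 (0.33 to 0.58) in cluster 0, led by Spp1, Cav1 and Ctsk, and the smallest was 0.05 (-0.10 to 0.19) in the Vsig4-rich cluster 1. Such an unbroken excess was seen for 1 member and 4.07% of tested genes. Hspa5 was lower in 10 of 10 clusters, between -0.38 in cluster 0 and -0.13 in cluster 1, and the interval lay below 0 in 9 of them. Without the Hspa5-rich cells, those with at least 2000 CPM of Hspa5, a limit set after seeing the data, the ratio in cluster 0 was -0.13 (-0.21 to -0.06). Calr was lower in 10 of 10 clusters, between -0.24 and -0.07. Lower in each cluster were 2 members and 2.38% of tested genes.

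The remaining members varied more between clusters. Eif2ak3 was higher in 9 of 10 clusters, with its largest log2 ratio, 0.57 (0.29 to 0.84), in the Apoe- and Gpnmb-rich cluster 5. Atf6 was higher in 8 of 10, and largest in the APC-like cluster 7, led by Ccl17 and Arg1, at 0.46 (0.34 to 0.57). Xbp1 was higher in 7 of 10 clusters, but only in cluster 7 did its interval lie above 0 (0.27, 0.12 to 0.43). Cluster 7 held 198 β-glucan and 364 PBS cells. A finer clustering (resolution 1) split off a PBS-rich, Arg1-led portion of 16 against 84 cells. It had Xbp1 at 211 and 89.9 CPM, a log2 ratio of 1.23 (0.74 to 1.71), from 46 and 193 UMIs. Atf6 stood there at 59.8 and 94.5 CPM, from 13 and 203 UMIs, with an interval that held 0 (-0.66, -1.60 to 0.15). In the rest of cluster 7 the log2 ratio of Xbp1 was 0.14 (-0.03 to 0.30) and that of Atf6 0.32 (0.20 to 0.44). Herpud1 was lower in 9 of 10 clusters and Dnajb9 in 7 of 10. Atf4 was higher in 6 clusters and lower in 4, from -0.17 in cluster 7 to 0.21 in cluster 10, with 1 interval above 0 and 1 below. Ddit3 was lower in 6 of 10, with 1 interval below 0, that of the Lyve1-rich cluster 4 (16.8 against 23.3 CPM, -0.47, -0.83 to -0.11).

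**Figure D2:**
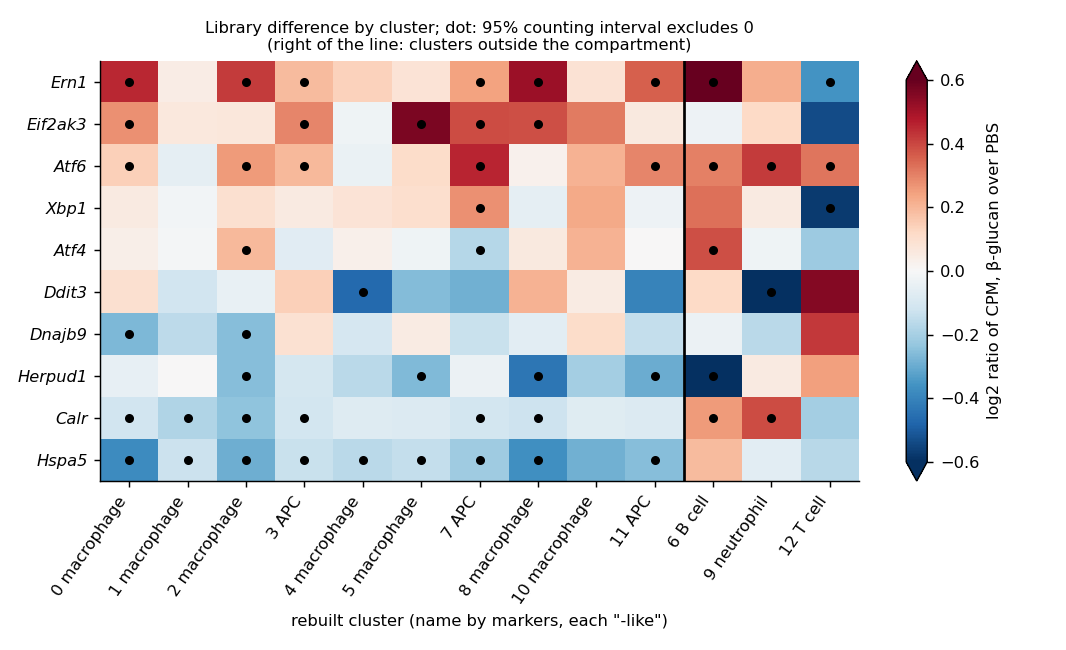
Log2 ratio of CPM, β-glucan over PBS, of each member (rows) in the 13 rebuilt clusters with at least 100 cells per library (columns), with a dot where the 95% counting interval excludes 0 and a line that separates the 10 compartment clusters from the 3 others. The Ern1 row is above 0 in each compartment cluster and the Hspa5 and Calr rows are below 0 there, while the B cell-like, neutrophil-like and T cell-like columns differ from this pattern for several members.

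The other genes of the pathway were read from lists. Of 18 ER chaperones and folding enzymes, 16 were lower and 2 higher in the trained cells. The median log2 ratio was -0.15, and intervals lay below 0 for 15, against 21.6% of tested genes, a share not taken at matched UMI number. The 15 genes of this list that are no members had a median of -0.17. Sdf2l1, a cofactor in BiP cycling, had -0.37 (-0.45 to -0.28) and was lower in 10 of 10 clusters. Ero1a, the oxidase that feeds disulfide formation, had -0.28 (-0.37 to -0.19), though in only 5 of 10 clusters was it lower. Canx, the membrane-bound relative of calreticulin, at 0.00 (-0.02 to 0.03) and the co-chaperone Dnajc3 at 0.02 (-0.02 to 0.07) were the highest of the list.

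Of 14 genes of translocation and secretion, 10 were lower and 4 higher, with a median of -0.06. The signal sequence receptor subunit Ssr2 at -0.23 (-0.31 to -0.16) and the translocon subunit Sec61b at -0.21 (-0.25 to -0.17) were the lowest, and Sec62 at 0.13 (0.09 to 0.17) and Sec61g at 0.03 (0.00 to 0.06) were the highest. ER-associated degradation was nearly balanced, with 7 of 15 genes higher and a median of -0.01, from Herpud1 and Derl1, a channel component at -0.07 (-0.13 to -0.01), to Sel1l, an adaptor of the HRD1 ligase at 0.04 (-0.01 to 0.09), and the mannosidase-like Edem3 at 0.10 (0.02 to 0.19). Of this list only Herpud1 and Derl1 had an interval below 0. Of 22 listed genes of the PERK branch and the integrated stress response, 19 were in the tables and 13 passed the minimum level. Of these 13, 6 were higher, with a median of -0.02, and with a minimum of 1 CPM 8 of 17 were higher. This branch was thus read from only part of its list. Among those that passed, the phosphatase subunit Ppp1r15a had -0.29 (-0.39 to -0.18) and the stress-induced Sesn2 -0.31 (-0.52 to -0.10). They were lower in only 6 and 5 of 10 clusters. The kinase Eif2ak2 had 0.24 (0.15 to 0.33) and the serine synthesis gene Psat1 0.10 (-0.11 to 0.31), higher in 8 and 7 of 10 clusters.

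Of 8 transcription factors 3 were higher, with a median of -0.02. Cebpb, a partner of CHOP that also acts in myeloid differentiation, had the lowest ratio, 222 against 362 CPM or -0.71 (-0.74 to -0.68), and was lower in 10 of 10 clusters. Creb3 came next at -0.06 (-0.15 to 0.03). Nfe2l2, a PERK substrate, had the highest at 0.22 (0.18 to 0.26), followed by Creb3l2, a membrane-bound relative of Atf6, at 0.14 (0.03 to 0.25). Of 10 partners of IRE1α 4 were higher. The kinase Map3k5 had 0.30 (0.26 to 0.34), the phosphatase Ptpn1 0.17 (0.13 to 0.21), Zbtb8os, a subunit of the ligase complex that joins Xbp1 exons, -0.12 (-0.22 to -0.03), and the apoptosis effector Bax -0.21 (-0.26 to -0.17).

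Of the listed mRNAs that IRE1α is known to cut, 3 of 6 passed the minimum level, and they did not move together. Bloc1s1, the substrate most often used as a readout of this decay, stood at 14.9 CPM against 20.2 CPM with PBS, a log2 ratio of -0.44 (-0.56 to -0.32), and was lower in 10 of 10 clusters. Hgsnat at 0.10 (0.05 to 0.16) and Sparc at 0.12 (0.08 to 0.16) were higher in the compartment as a whole, but only in 4 and 6 of the 10 clusters. Bloc1s1 spans 8.2 kb, and Hgsnat and Sparc 35.4 and 28.8 kb.

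Gene span moved with the library difference. The median log2 ratio of tested genes was -0.06 for the 1847 genes under 10 kb, 0.00 for those of 10 to 30 kb, 0.06 for 30 to 100 kb and 0.15 for the 1372 genes of 100 kb or more. The sensors Ern1, Eif2ak3 and Atf6 span 94.9, 60.8 and 164 kb, whereas the other 7 members span 2.37 to 12.4 kb. Ern1 stood above 94.2% and Eif2ak3 above 90.9% of tested genes of the same span, while Atf6 stood above only 46.7%. Hspa5 stood above 11.1%, Herpud1 above 9.05% and Calr above 27.1% of theirs. Set against the median of its own span, each of the 18 chaperone genes was lower, by a median of -0.14, and 12 of 14 translocation genes were lower. Among members 5 lay above and 5 below the median of their span.

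When cells of both libraries were weighted, within each cluster, to one distribution of the UMI share from genes of 100 kb or more, the differences of the sensors and targets became smaller. Ern1 then had a log2 ratio of 0.18, Eif2ak3 0.16 and Atf6 0.033, and Hspa5 had -0.16, Herpud1 -0.15, Calr -0.050 and Dnajb9 -0.074. The factors did not shrink alike, with Xbp1 at 0.069, Atf4 at 0.015 and Ddit3 at 0.023. Long genes made up 19.5% of UMIs in the trained cells against 17.7% in the controls, and the weighting reduced the log2 ratio of this share from 0.14 to 0.04.

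**Figure D3:**
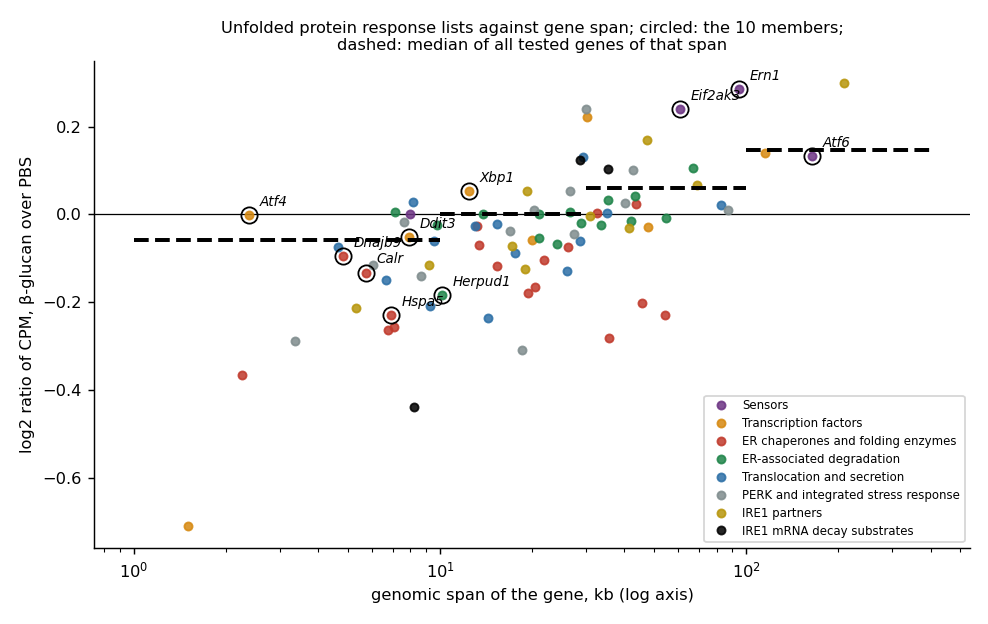
Log2 ratio of CPM, β-glucan over PBS, in the compartment against genomic span in kb (log axis) for the tested genes of the pathway lists, coloured by list, with the members circled and dashed lines for the median of all tested genes of each span. Ern1 and Eif2ak3 lie above the line of their span and Atf6 near it, and the red chaperone genes, with Hspa5 and Calr among them, lie below the lines.

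Genes linked to tissue dissociation moved with the targets as well. Of 22 such genes, 18 were lower and 4 higher with β-glucan, and their summed level was 4539 CPM against 5252 CPM with PBS. Nr4a1 had a log2 ratio of -0.51 and Dusp1 -0.48, whereas Jun had 0.22 and Hspa1a 0.17. Of 10 clusters, Nr4a1 was lower in 6 and Dusp1 in 9, and Jun was higher in 7 and Hspa1a in 6. Weighted to one distribution of the share of these genes, Ern1 had 0.28, Eif2ak3 0.21 and Atf6 0.14, and Hspa5 had -0.20, Herpud1 -0.16 and Calr -0.13. Dnajb9 moved to -0.039, Xbp1 had 0.048, Atf4 moved to 0.077 and Ddit3 turned to 0.034. That weighting reduced the log2 ratio of the dissociation-linked share from -0.21 to -0.06. The cells also differed in composition: the summed level of the 12 APC markers was 7606 CPM against 11422 CPM with PBS, 10 of them lower. All 6 osteoclast markers were lower, 142 against 226 CPM in sum, and all 6 proliferating markers, 37.4 against 50.2 CPM. In sum, on the log2 scale, neutrophil markers differed by -0.12, stromal markers by 0.20 (33.3 against 29.1 CPM) and NK cell markers by 0.62 (1.27 against 0.822 CPM), and the B cell, plasma cell, T cell, basophil/mast and endothelial markers by 0.01 to 0.07. The part of these cells in the result was not tested. With equal weight per cluster, Ern1 had 0.23, Hspa5 -0.22, Calr -0.12 and Herpud1 -0.087.

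The members also differed between cell classes. Since 3' counts of different genes are not on one scale, each gene was compared only with itself. In all, 9 classes were set against macrophage-like cells, and 6 differences of members reached 2-fold in both libraries: 3 in B cell-like, 2 in basophil/mast-like and 1 in endothelial-like cells, the last being Calr. In endothelial-like cells 12.9% of the genes compared were higher and 8.93% lower by this measure. No member reached it in neutrophil-like cells (7.21% of genes higher and 1.6% lower), T cell-like cells (11.0% and 11.7%), NK cell-like cells (9.83% and 12.0%), stromal-like cells (14.3% and 15.3%) or proliferating-like cells (7.75% and 5.46%). Ern1 was highest in T cell-like cells, at 109 CPM with β-glucan and 139 CPM with PBS, followed, over both libraries together, by macrophage-like cells at 100 and 81.9 CPM, though NK cell-like cells stood at 84.9 CPM with PBS. It was lowest in B cell-like cells, at 48.4 and 23.9 CPM. Neighbours in this order overlapped in their intervals in at least 1 library. Within the compartment Ern1 ranged 2.03-fold, from 70.3 CPM in cluster 4, led by Aqp1 and Lyve1, to 142 CPM in cluster 10, led by Plxna4 and Klf12. Cluster 10 had a median of 4969 UMIs per cell, and 29.8% and 28.7% of its UMIs came from long genes.

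By the 2-fold measure, B cell-like cells differed from macrophage-like cells for 3 members. The B cell-like cells had the highest Eif2ak3, at 153 CPM with β-glucan and 156 CPM with PBS, against 42.2 and 36.6 CPM in macrophage-like cells. This was 3.63-fold and 4.27-fold, and 10.6% of the genes compared were at least 2-fold higher in B cell-like cells in both libraries. With PBS the interval of Eif2ak3 overlapped that of endothelial-like cells, at 127 CPM (76.7 to 199) from 13 cells. Ern1 and Xbp1 were both at least 2-fold lower there, as were 14.3% of the genes compared. Xbp1 had 49.2 and 39.1 CPM. Other classes had similar levels: Ern1 stood at 49.5 and 44.1 CPM in stromal-like cells, and Xbp1 at 58.7 and 35.4 CPM in NK cell-like cells. Of the 574 B cell-like cells 0 carried 3 of 4 plasma cell markers. Jchain was at 0 and 4.34 CPM and Sdc1 at 3.70 and 1.63 CPM, while Mzb1, a marker on this list that B cells also express, was at 90.2 and 173 CPM.

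The position of Eif2ak3 bears on this reading. Eif2ak3 (chr6:70821461-70882235, plus strand, GRCm39) begins 118 kb beyond Igkc, the constant gene of the immunoglobulin κ light chain, on the same strand. Igkc stood at 3121 and 4930 CPM in B cell-like cells and at 0.969 and 2.39 CPM in macrophage-like cells. Rpia, a sugar phosphate isomerase gene on the minus strand between Igkc and Eif2ak3, was also higher in B cell-like cells, at 31.4 and 45.0 CPM against 7.23 and 7.15 CPM. The transcript Gm30211, which overlaps Igkc and ends 91.0 kb before Eif2ak3, stood at 226 and 251 CPM in B cell-like cells and had 3 and 4 UMIs in macrophage-like cells. Tex37 and Foxi3, beyond the other end of Eif2ak3, had 0 UMIs in both classes. The part of this neighbourhood in the Eif2ak3 count was not tested.

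Ddit3 was highest in basophil/mast-like cells, at 90.3 CPM with β-glucan and 82.1 CPM with PBS, against 16.5 and 17.8 CPM in macrophage-like cells. This was 5.47-fold and 4.61-fold, where 8.93% of the genes compared were at least 2-fold higher. The level rested on 53 and 38 UMIs, from 95 and 99 cells with a median of 4004 and 3399 UMIs. Neutrophil-like cells came next at 32.2 and 49.5 CPM. With PBS their interval (39.2 to 61.7) overlapped that of basophil/mast-like cells (58.1 to 113). The neutrophil-like cells had a median of 9494 and 4706.5 UMIs per cell and 9372 and 14441 CPM of dissociation-linked genes. Calr was at least 2-fold lower in basophil/mast-like cells (148 and 119 CPM against 334 and 368 CPM), as were 11.0% of the genes compared. Herpud1 had its highest level in the same cells, at 124 and 130 CPM, with intervals that overlapped those of APC-like cells at 110 and 122 CPM.

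Hspa5 was highest in stromal-like cells, cells that secrete matrix, at 367 and 391 CPM, apart from macrophage-like cells at 278 and 329 CPM in both libraries. Dnajb9 had its highest level there too, at 47.9 and 49.1 CPM, with overlap of its neighbour. Calr was highest in macrophage-like cells, with intervals that overlapped those of APC-like cells in both libraries. Xbp1 was highest in APC-like cells, at 125 and 116 CPM against 112 and 108 CPM in macrophage-like cells. Between APC-like and macrophage-like cells, 0 of 9 members differed 2-fold in both libraries, while 2.45% of genes were higher and 2.42% lower by that measure. Atf6 was highest in T cell-like cells (277 and 222 CPM) and lowest in stromal-like cells (78.1 and 70.0 CPM). Atf4 had the smallest range over the 10 classes, 1.52-fold with β-glucan, down to 82.7 CPM in T cell-like cells, and 1.90-fold with PBS, down to 67.2 CPM in NK cell-like cells.

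**Figure D4:**
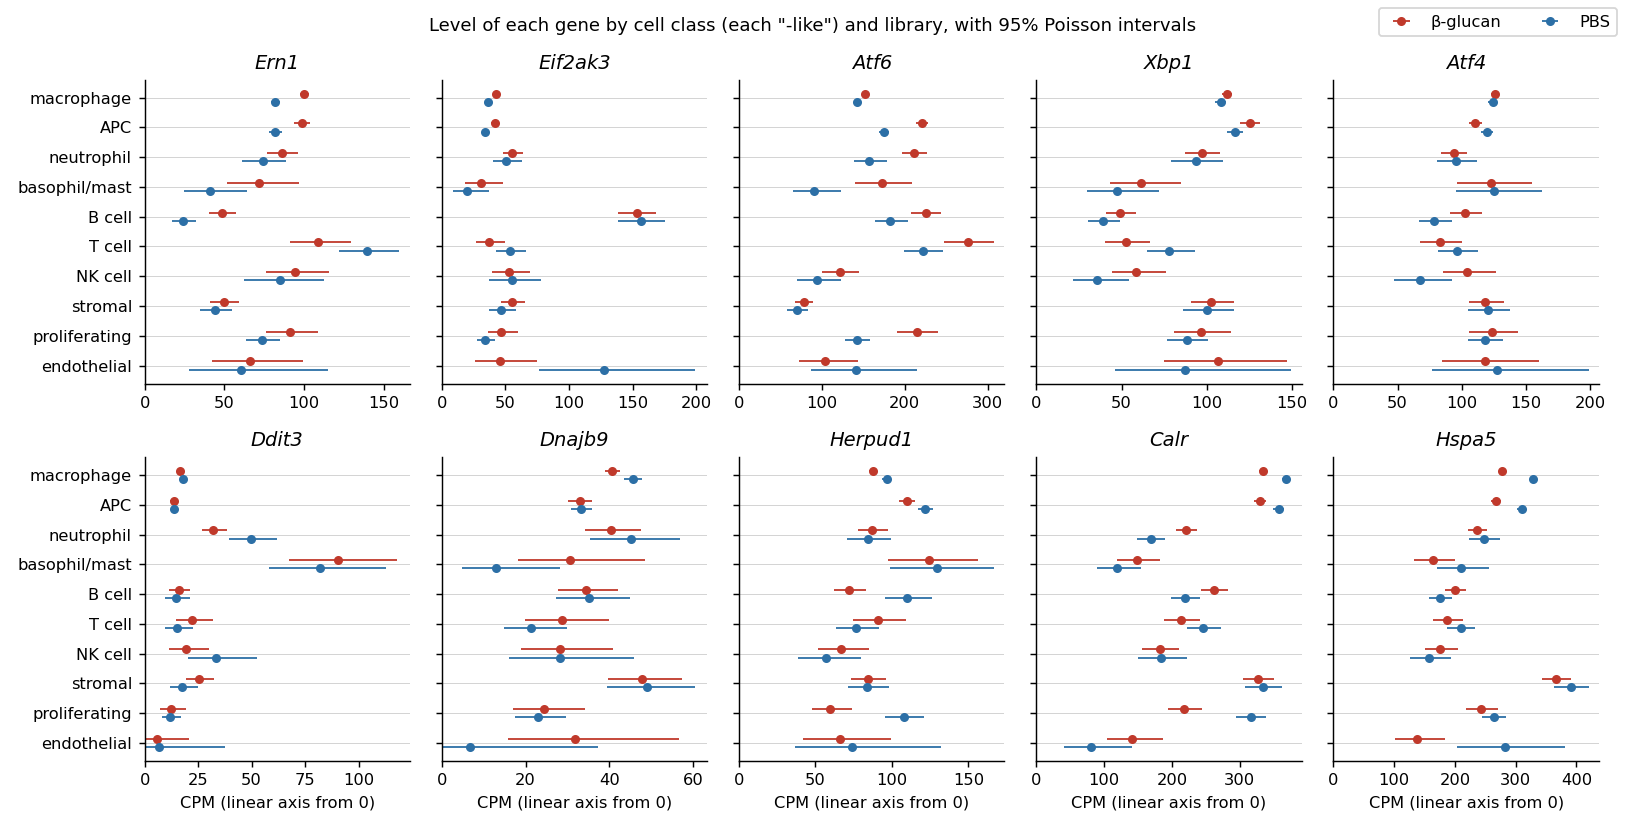
CPM of each member in 10 cell classes for the β-glucan (red) and PBS (blue) library, with 95% Poisson intervals and linear axes from 0 that differ between panels. Eif2ak3 is highest in B cell-like cells at 153 and 156 CPM and Ddit3 in basophil/mast-like cells at 90.3 and 82.1 CPM. In macrophage-like cells the red point lies to the right of the blue for Ern1 and to the left for Hspa5 and Calr.

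Some of the members went together across clusters. Over the 17 clusters with at least 50 cells per library, which differ in depth and cell type, Pearson's r of log2 CPM was 0.86 and 0.77 between Hspa5 and Calr and 0.76 and 0.89 between Hspa5 and Xbp1, in the β-glucan and PBS library. Of the 45 pairs of members 19 had r above 0 in both libraries and 18 had r below 0 in both. Among those above 0, 5 had r above 0.5 in both, all among Xbp1, Hspa5, Calr and Dnajb9. Pairs below 0 included Ddit3 and Calr (-0.52 and -0.69) and Ern1 and Eif2ak3 (-0.35 and -0.32). The share of all gene pairs past these values was not measured, so the counts are not a result about the members. Across thinned cells of the compartment, with cluster means removed and averaged over the draws, Hspa5 and Calr had 0.21 and 0.27 (3751 and 3109 cells). The PBS value includes the cell with 549 Hspa5 UMIs, and r without that cell is not given here. Between Ern1 and Xbp1 r ranged over the draws from -0.033 to 0.012 and from -0.021 to 0.030. With the sum of all long genes r was 0.17 and 0.14 for Ern1, 0.18 and 0.20 for Atf6 and 0.09 and 0.07 for Eif2ak3. The other members had r below 0 with that sum in both libraries. A sum over many genes carries less counting error than a single gene, so these values cannot be set against those between members.

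Over the same 17 clusters, genes among the most like Ern1 of 10976 compared were Paqr7, Scarb1, Myo9b and Iqgap2, with a mean r of 0.77 to 0.79. Those most like Xbp1 were Ltbr, Anxa5, Ier5l, Prkra and Anxa4 (0.88 to 0.90), and those most like Hspa5 were Cbr3, Ier5l, Dstn, Tm2d2 and Cst3 (0.88 to 0.90). Those most like Ddit3 were Samd13, Cyp11a1, Tax1bp1 and the basophil and mast cell genes Fcer1a and Gata2 (0.87 to 0.90).

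The promoter element was also read across the table. Of 49 genes with either form of the ER stress response element 22 were tested in the compartment, 13 of them lower with β-glucan and 9 higher, with a median log2 ratio of -0.06. Intervals lay below 0 for 10 and above 0 for 1, against 21.6% and 33.0% of all tested genes, shares not taken at matched UMI number. The 10 were Creld2, Hspa5, Ero1b, Herpud1, Pdia6, Rcl1, Calr, Hsp90b1, Dnajb11 and Krtcap2, most of them ER folding genes of the list above, and the 1 was the splicing factor gene Rbm39 at 0.05. The 10 include the 3 members whose promoters are printed above. Of 83 tested genes with the UPR element core, 51 were higher and 32 lower, with a median of 0.03. Their intervals lay above 0 for 27 and below 0 for 13. Of 227 with the amino acid response element core, 134 were higher and 93 lower, with a median of 0.03. Here intervals lay above 0 for 79 and below 0 for 43.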

How the data were processed

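Cells were counted by the authors with Cell Ranger 7.0.0 against GRCm39 with an Ensembl annotation. The deposited values are UMI counts per gene, not normalised, for 7196 and 5760 barcodes, called cells rather than all droplets. Cell Ranger of this version counts reads in introns by default, which bears on long genes such as Ern1, Eif2ak3 and Atf6. Whether the default was kept is not given in the sources used here. The barcode and gene lists that accompany them hold names and no values.

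Barcodes under 500 genes or above 10% mitochondrial UMIs were removed. Scrublet (scanpy 1.11.5) called 0 and 2 cells and so did not work, and doublets were kept. Clusters were rebuilt with Seurat 5.3.0 and sctransform 0.4.2 in R 4.3.3 (3000 variable genes, 30 components, 20 neighbours, resolution 0.7, no integration), leaving 117 member and pathway genes out of the components. They were named by the best scored marker list with at least 3 detected markers, and may differ from the study's clusters.

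UMIs were summed per library and divided by the total (CPM), with exact Poisson intervals, and the log2 ratio was given an exact conditional binomial interval. On simulated sums of 9806 genes, 94% of true values of 200 genes changed by 0.25 lay inside it. These sums were drawn with counting error alone, the error the interval is built for. The simulation therefore checks the calculation, and does not show that the interval holds for counts that vary more between cells. A minimum mean of 5 CPM was set for the share of genes past a ratio, and of 20 CPM between classes. Cells of at least 8000 UMIs were thinned to that number in 20 random draws, and values were averaged, since a single draw moved them. Positions and spans are from GENCODE vM39 (GRCm39), in which 31870 of 32524 IDs were found. Beside the 10 members, named genes were the 2 highest and 2 lowest of each pathway list, the 5 most like Ern1, Xbp1, Hspa5 and Ddit3, of which 1 is not reported here, and cluster markers. Hsp90b1, Manf, Atf3, Mzb1, Jchain, Sdc1, the genes beside Eif2ak3 and the genes with a promoter element were named after their values were seen. The members and lists were chosen with earlier results of these data known. Protein sequences were not used here.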

Additional observations from a re-analysis of the deposited data

Results flagged for a closer look

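Each member was read in each class outside the compartment, some of them with few cells. In 5 cases the libraries differed one way in the compartment and the opposite way in another class, with counting intervals on opposite sides of 0. The share of all tested genes that do so was not measured, so the 5 cases are not a result about the members. In no case was the difference itself tested. In T cell-like cells (120 β-glucan and 128 PBS cells) the log2 ratio of Ern1 was -0.36 (-0.68 to -0.04) and that of Xbp1 -0.57 (-1.03 to -0.13), against 0.28 and 0.05 in the compartment. Calr was higher with β-glucan in neutrophil-like cells, at 0.39 (0.19 to 0.60), and in B cell-like cells, at 0.25 (0.08 to 0.43), against -0.13. In the same B cell-like cells Ern1 had 1.02 (0.52 to 1.55) and Herpud1 -0.61 (-0.90 to -0.32). Doublets were kept, and their part in these B cell-like values was not tested. The neutrophil-like cells had a median of 9494 UMIs in the β-glucan and 4706.5 in the PBS library. Eif2ak3 in endothelial-like cells had -1.47 (-2.52 to -0.43) against 0.24, from 23 and 13 cells.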

How the results depend on the processing

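The log2 ratios of the 10 members were recomputed under 15 alternatives. All 15 kept the sign of Ern1, Eif2ak3, Atf6, Xbp1, Hspa5, Calr, Herpud1 and Dnajb9, and 12 that of Atf4 and of Ddit3, whose intervals hold 0. Ern1 ranged from 0.18 to 0.30 and Hspa5 from -0.25 to -0.16. Values outside the main interval came from few settings, and where no construction is named the cause was not tested. With equal weight per cluster Ern1 had 0.23, Xbp1 0.10, Atf6 0.23 and Herpud1 -0.087. With each cell thinned to 8000 UMIs, which left out the shallower cells, no member left its interval on average over 20 draws, but at least 1 single draw did for 9 of the 10 members, all but Dnajb9, most often for Atf6 (11 of 20 draws, 0.061 to 0.13), Calr (5, -0.14 to -0.091) and Hspa5 (3, -0.24 to -0.19). The averaging was chosen after single draws were seen to differ. Weighted to one long-gene share, Ern1 had 0.18, Atf6 0.033, Hspa5 -0.16 and Calr -0.050, and weighted to one dissociation-linked share Atf4 had 0.077. Between 4 and 6 members were higher under the alternatives. Without the cell of the most Hspa5 UMIs, a choice made after seeing the data like leaving out clusters 0, 7 and 10 in turn, Hspa5 had -0.19, and leaving out these clusters moved no member outside its interval. The median of the IRE1α partners was 0.054 with a minimum of 50 CPM and -0.02 otherwise. With a minimum of 1 CPM, 8.11% of genes lay at or below a ratio of -0.25. The mean log2 level of Ern1 in B cell-like over macrophage-like cells was -1.41, and -2.01 without the highest doublet scores, and that of Xbp1 was -1.33 and -1.90. No paired analysis was possible because each group was 1 library. With 1 library per group, spread between mice was not measured.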

Other observations

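The 1437 barcodes with at least 500 genes that the mitochondrial limit left out, 766 in the β-glucan and 671 in the PBS library, showed the members in another balance. Against cells that passed, on CPM without mitochondrial genes, Ern1 was higher by a log2 value of 0.63 in the β-glucan and 0.82 in the PBS library, Eif2ak3 by 0.59 and 0.80, and Atf6 by 0.54 and 0.59. Hspa5 differed by -0.64 and -0.59 and Calr by -1.04 and -1.10. These barcodes had a median of 2577.5 and 2991 UMIs. Herpud1 differed by -0.34 and -0.30 and Dnajb9 by -0.23 and -0.80. Of the factors, Xbp1 differed by -0.42 and -0.36, Atf4 by 0.17 and 0.18 and Ddit3 by -0.03 and 0.34. The sensors and targets were thus apart here in the direction seen with β-glucan, in both libraries alike, but Xbp1 went the other way. The left-out barcodes were not assigned to cell classes and were set against passed cells of all classes. A difference in cell classes between them was not measured. The filter passed 79.2% of β-glucan and 79.0% of PBS barcodes. The part of barcodes of this kind in the difference between the libraries was not tested.

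A few cells of the compartment carried the chaperones at a high level, 4 in the β-glucan and 7 in the PBS library with at least 2000 CPM of Hspa5. Chosen by Hspa5, they also had Hsp90b1, the ER-resident HSP90, at 1799 and 1690 CPM, where the other cells had 319 and 344 CPM. Manf, a secreted ER stress protein, stood at 806 and 813 CPM against 75.5 and 87.5 CPM, and Sdf2l1 at 269 and 434 CPM against 32.0 and 40.6 CPM. Dnajb9 was at 188 and 193 CPM. Further members were high there as well. Calr stood at 1316 and 1521 CPM against 332 and 362 CPM, and Herpud1 at 510 and 298 CPM against 92.3 and 105 CPM. Among the 7 PBS cells, a single cell held 549 of the 804 Hspa5 UMIs and 73 of the 189 Calr UMIs. Of the factors, Xbp1 had 295 and 193 CPM against 115 and 111 CPM, and Atf4 564 and 266 CPM against 122 CPM in both. Atf3, another listed factor, did not rise, at 80.6 (16.6 to 235) and 137 CPM (79.7 to 219) against 194 and 198 CPM. In the 4 β-glucan cells Sdf2l1, Xbp1 and Dnajb9 rested on 10, 11 and 7 UMIs. Ddit3 had 242 and 48.3 CPM against 15.7 and 16.4 CPM, from only 9 and 6 UMIs in the Hspa5-rich cells. Ern1, at 107 (29.3 to 275) and 105 CPM (55.7 to 179), had intervals that held its level in the compartment as a whole.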
